A study of Mus musculus with 20 samples.

Results

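The genes Kcnq3, Kcnq5, Hcn2, Hcn3 and Hcn4 code for pore-forming subunits of the M-current (KCNQ) potassium channels and of the hyperpolarisation-activated (HCN) cation channels. They were taken by symbol from RNA-seq of hippocampus and neocortex and are 5 of the 35580 mouse genes to which the listed transcripts could be assigned. For each gene the estimated counts, and separately the TPM values (a share of all transcripts, scaled for transcript length), of all its annotated transcripts were summed in each of the 20 samples. Other subunits of both families were not analysed here.

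KCNQ channels open slowly below the firing threshold and do not inactivate, and the potassium current they carry, the M-current, holds back repetitive firing. The membrane lipid PIP2 is required for them to conduct, so that muscarinic receptors acting through Gq and phospholipase C close them, and calmodulin, protein kinase C and ankyrin-G bind, tune or place them. HCN channels open when the cell is hyperpolarised, pass an inward current (Ih) that sets the resting potential and dendritic summation, and are helped to open by cAMP, to a degree that differs between subunits. Loss of function of KCNQ and HCN subunits is known from inherited epilepsies, and both currents are present in pyramidal cells of the hippocampus and neocortex.

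The samples came from male C57BL/6J mice of 13.5 months, which were either wild-type (WT) or lacked the miR-324 locus through a deletion made with CRISPR/Cas9 (miR-324-null). Each of the 4 groups, WT hippocampus, miR-324-null hippocampus, WT neocortex and miR-324-null neocortex, held 5 samples. The founders were of mixed C57BL/6 and CBA/Ca background and were backcrossed to C57BL/6J, and the deletion is in every cell from birth, so that no cell type or time is singled out. Bulk tissue was sequenced, in which a lower level in each cell cannot be told apart from fewer of the cells that express the gene, and the labels do not say that the samples of a group came from separate mice, so that p values measure the spread between these samples.

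The libraries held 12752439 to 19617765 estimated counts. The primary transcript of Mir324 had no row in the tables, so the deletion itself could not be checked here. The tissue labels were borne out by markers: all 8 hippocampal markers were higher in hippocampus of WT mice and 7 of 8 in that of miR-324-null mice, and 7 of 8 neocortical markers were lower there in either genotype. Some libraries stood apart. The miR-324-null hippocampus replicates 1 and 2 were low in long transcripts, with a median log2 level of genes over 6000 bases relative to genes under 2000 bases of -0.23 and -0.27, against -0.05 to 0.18 in the other hippocampal libraries. Choroid plexus markers summed to 4550 CPM (counts scaled to library size) in WT hippocampus replicate 3 and 3898 CPM in miR-324-null hippocampus replicate 5, against 41.3 to 141 CPM in the other hippocampal libraries. The miR-324-null hippocampus replicates 1 and 2 also had low marker sums. Hippocampal markers were at 712 and 724 CPM, against 819 to 931 CPM in the other hippocampal libraries, and neocortical markers at 344 and 328 CPM, against 355 to 552 CPM. In neocortex, the striatal marker sum ranged from 195 to 442 CPM in WT and from 279 to 676 CPM in miR-324-null libraries, and the hippocampal marker sum from 201 to 257 CPM and from 201 to 354 CPM. The habenular markers Chrnb4, Gpr151 and Pou4f1 and the striatal marker Isl1 averaged under 1 CPM.

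Since the deletion removes both arms of miR-324, the mature sequences (RefSeq, GRCm38.p6, chromosome 11, plus strand) are shown first, with the seed that pairs with target transcripts, bases 2 to 8, in capitals.
mmu-miR-324-5p, chr11:70012060-70012082: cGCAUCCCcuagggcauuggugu
mmu-miR-324-3p, chr11:70012095-70012114: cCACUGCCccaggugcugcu
The letters that pair with the full seeds are GGGATGC for miR-324-5p and GGCAGTG for miR-324-3p. They were searched on the sense strand of the annotated 3′UTRs of every protein-coding transcript of the 5 genes. For either sequence shown, 0 matches were found. The paper describes a further reported variant of miR-324-3p with an altered seed, which was not searched. Of 14224 genes tested for expression with an annotated 3′UTR, 7.95% held the miR-324-5p match and 14.4% the miR-324-3p match in their most abundant protein-coding transcript. Of the members, Kcnq3-201 had the longest 3′UTR, at 8784 bases, and Hcn2-202 the shortest of the leading transcripts, at 568 bases, beside a median of 1025 bases. A shorter match to bases 2 to 7 (GGATGC or GCAGTG, letters that are also part of the longer matches) was present in 3 members. That for miR-324-5p was in Kcnq3 alone, and 23.9% of the 14224 genes held one. That for miR-324-3p was in Kcnq3, Hcn2 and Hcn4, and 35.7% of the 14224 genes held one. Its sites are shown with 10 bases on either side and the paired letters in capitals (GRCm38, strand of the gene).
Kcnq3, miR-324-5p, chr15:65992890-65992895: tgttacattaGGATGCactttttaaa
Kcnq3, miR-324-5p, chr15:65986913-65986918: aacctaggatGGATGCacattatcag
Kcnq3, miR-324-3p, chr15:65989785-65989790: agtccttagtGCAGTGactggtccat
Kcnq3, miR-324-3p, chr15:65989436-65989441: gccagatgtaGCAGTGttctctaaaa
Hcn2, miR-324-3p, chr10:79736046-79736051: agccgaggcaGCAGTGgcccccacgc
Hcn4, miR-324-3p, chr9:58862433-58862438: agaggttactGCAGTGatgttgagat
Hcn4, miR-324-3p, chr9:58862616-58862621: tgatgcccgtGCAGTGagggggctgg
The matches are descriptions of letters in the annotated transcripts. The base after a shorter match was not part of the search, and its share over all genes was not computed. It is an A at both Kcnq3 miR-324-5p sites, both Hcn4 sites and the Kcnq3 miR-324-3p site at chr15:65989785-65989790. Kcnq5 and Hcn3 held neither the longer nor the shorter match.

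On the length-scaled TPM scale Hcn2, a fast-opening HCN subunit, had the highest level of the 5 genes in every group, and Hcn4, the slow subunit best known from the cardiac pacemaker, the lowest. Hcn2 averaged 60.4 TPM ± 3.87 (SD, n = 5) in WT hippocampus and 68.2 TPM ± 8.67 in WT neocortex. Kcnq3 averaged 29.6 TPM ± 1.74 and 27.2 TPM ± 3.08 in the same groups. Kcnq5 averaged 19.0 TPM ± 3.19 in WT hippocampus but 29.9 TPM ± 1.87 in WT neocortex. Kcnq3 therefore ranked above Kcnq5 in WT hippocampus, in 5 of 5 samples and with no overlap of their ranges, whereas in WT neocortex Kcnq5 lay above Kcnq3 within each of the 5 samples although the ranges overlapped. In miR-324-null samples the ranges of this pair overlapped in both tissues, with Kcnq3 the higher in 3 of 5 hippocampal samples and Kcnq5 the higher in 2 of 5 neocortical samples. Hcn3 averaged 4.71 TPM ± 0.70 in WT hippocampus and 6.43 TPM ± 0.98 in WT neocortex. Hcn4 averaged 0.78 TPM ± 0.29 and 0.68 TPM ± 0.17. Hcn2, the KCNQ pair, Hcn3 and Hcn4 did not overlap as steps of this order in any group.

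**Figure D1:**
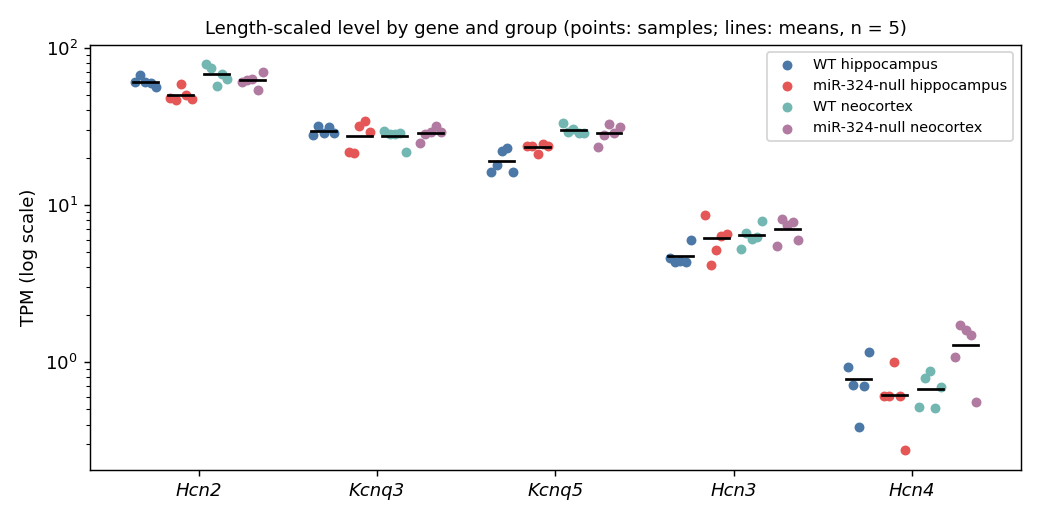
Level in TPM on a log axis for the 5 genes, with 1 point for each of the 5 samples of a group and a line at the group mean. Hcn2 lies above all other members in each group, from 50.2 to 68.2 TPM on average, and Hcn4 below them, from 0.62 to 1.29 TPM.

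The question put to each gene was whether its transcript level differed between miR-324-null and WT samples of a tissue, and between the tissues. With edgeR's quasi-likelihood test on the summed counts and a Benjamini-Hochberg adjusted p of at most 0.05, 0 of 5 members passed for genotype in hippocampus, where 0.115% of 14796 genes passed. At an unadjusted p of at most 0.05 there were 2 members, Hcn2 and Kcnq5, beside 1635 of the 14796 genes. DESeq2 called 1, Hcn2, beside 138 of the 14796 genes. In neocortex 0 of 5 members passed for genotype, beside 0.315% of 14930 genes. There 1 member, Hcn4, had an unadjusted p of at most 0.05, beside 1822 genes, and DESeq2 called 0 members, beside 240 genes. Between tissues 1 of 5 members, Kcnq5, passed in WT samples, beside 36.1% of 14894 genes, and 1 of 5, Hcn4, in miR-324-null samples, beside 27.4% of 15033 genes. Both were lower in hippocampus, the direction in which 18.0% and 13.6% of all genes tested passed. For the difference of the genotype effect between the tissues 0 of 5 passed, beside 0.0195% of 15391 genes. An unadjusted p of at most 0.05 was found for 2 members, Kcnq5 and Hcn4, beside 857 genes, and DESeq2 called 0 members, beside 6 genes. The tissue comparisons in WT and the genotype comparisons share the WT samples, so their values are given side by side for each gene and not compared.

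**Figure D2:**
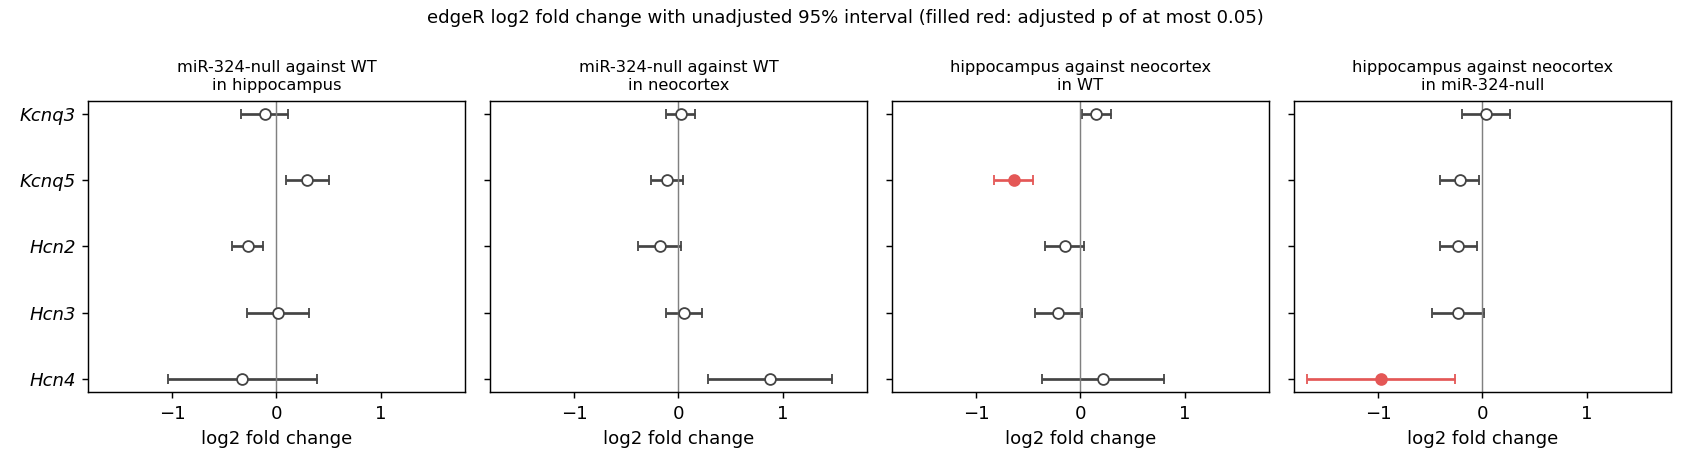
edgeR log2 fold change (circle) and its unadjusted 95% interval (bar) for the 5 genes, for miR-324-null against WT in each tissue and for hippocampus against neocortex in each genotype. Filled red circles mark an adjusted p of at most 0.05, which only Kcnq5 in WT samples and Hcn4 in miR-324-null samples reached, both on the left of 0.

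Kcnq3, which joins other KCNQ subunits to form the classical M-channel, lies on the minus strand at chr15:65986387-66286642, and its transcript Kcnq3-201 of 11824 bases held 99.0% of the gene's TPM on average. In WT hippocampus the 5 libraries gave 214, 230.3, 207, 217 and 205 CPM (after TMM scaling, as for all CPM below). In miR-324-null hippocampus they gave 164, 159.6, 224, 235 and 210.05 CPM. Replicates 1 and 2, the libraries low in long transcripts, lay far below the other 3, which fell within or just above the WT range. The log2 fold change was -0.11 (95% interval -0.34 to 0.11, adjusted p = 0.73 by edgeR), and without replicates 1 and 2 it was 0.05 (adjusted p = 0.78).

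**Figure D3:**
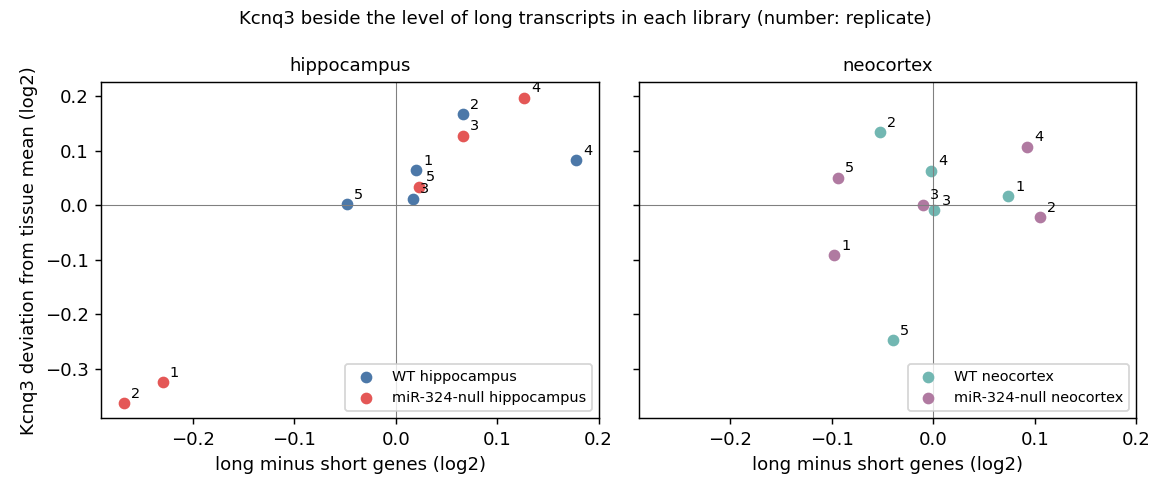
Deviation of Kcnq3 from its tissue mean (log2 TMM-scaled CPM) against the median log2 level of genes over 6000 bases minus that of genes under 2000 bases, for each library, numbered by replicate. The miR-324-null hippocampus replicates 1 and 2 lie at the lower left, with Kcnq3 at -0.32 and -0.36, apart from the other 8 hippocampal libraries.

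In WT neocortex Kcnq3 was at 196, 213, 193, 203 and 164 CPM, and in miR-324-null neocortex at 182, 191, 194, 209 and 201 CPM. The groups overlapped throughout, and the log2 fold change was 0.02 (95% interval -0.12 to 0.16, adjusted p = 0.94 by edgeR). Hippocampus was 0.15 higher than neocortex on the log2 scale in WT samples (95% interval 0.01 to 0.29, adjusted p = 0.087 by edgeR), with 5 of 5 hippocampal samples above the neocortical mean. That difference passed with an adjusted p of 0.0438 when WT neocortex replicate 2 was left out. In miR-324-null samples the tissues differed by 0.03 (95% interval -0.20 to 0.26, adjusted p = 0.86), or by 0.20 (adjusted p = 0.0472) without the hippocampal replicates 1 and 2, a fit in which the Hcn4 call given below was lost. The part in these values of long-transcript level, or of the lower marker sums of the same libraries, was not tested beyond leaving out those libraries.

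Kcnq5, the KCNQ subunit also found together with Kcnq3 in cortical and hippocampal neurons, lies on the minus strand at chr1:21398403-21961942. It was lower in hippocampus than in neocortex of WT mice. WT hippocampus gave 67.5, 71.3, 86.2, 87.8 and 62.9 CPM, and WT neocortex gave 126, 119.6, 112, 112 and 117 CPM. Every hippocampal sample was below every neocortical one, with a log2 fold change of -0.64 (SE 0.085, 95% interval -0.82 to -0.46, adjusted p = 5.6e-05 by edgeR) and a level 1.56-fold lower. The call held in all 11 alternatives tried and in all 10 fits that left out 1 library, with a log2 fold change between -0.70 and -0.58 in the latter. Summed hippocampal markers, at 819 to 926 CPM against 201 to 257 CPM, and pan-neuronal markers, at 4639 to 5072 CPM against 6501 to 7122 CPM, moved with the same contrast, and their part in the Kcnq5 difference was not tested.

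In miR-324-null samples Kcnq5 was at 98.8, 97.2, 79.6, 92.3 and 93.8 CPM in hippocampus and at 91.1, 104, 121, 104 and 119.7 CPM in neocortex. Hippocampus was again below the neocortical mean in 5 of 5 samples, but the ranges overlapped and the log2 fold change of -0.22 (95% interval -0.40 to -0.03) did not pass (adjusted p = 0.077 by edgeR). It did pass with DESeq2 (adjusted p = 0.048), with limma on log2(TPM + 1) (adjusted p = 0.047), and without miR-324-null neocortex replicate 1 (adjusted p = 0.026). That replicate had the lowest Kcnq5 and the highest hippocampal marker sum of its group, 354 CPM. Replicates 2 to 5 were at 338, 301, 313 and 201 CPM in that sum, and WT neocortex at 201 to 257 CPM. The part of these markers in the Kcnq5 values of this paragraph was not tested. Set against WT, the miR-324-null hippocampal level was 0.30 higher on the log2 scale (SE 0.096, 95% interval 0.09 to 0.51), with 5 of 5 samples above the WT mean and overlapping ranges, and an adjusted p of 0.32 by edgeR. The neocortical genotype difference was -0.11 (95% interval -0.27 to 0.05, adjusted p = 0.59). The difference between these genotype effects was 0.41 (SE 0.13, 95% interval 0.15 to 0.68), with an adjusted p of 0.77 by edgeR, so that a tissue-specific response of Kcnq5 was not shown over all genes tested.

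**Figure D4:**
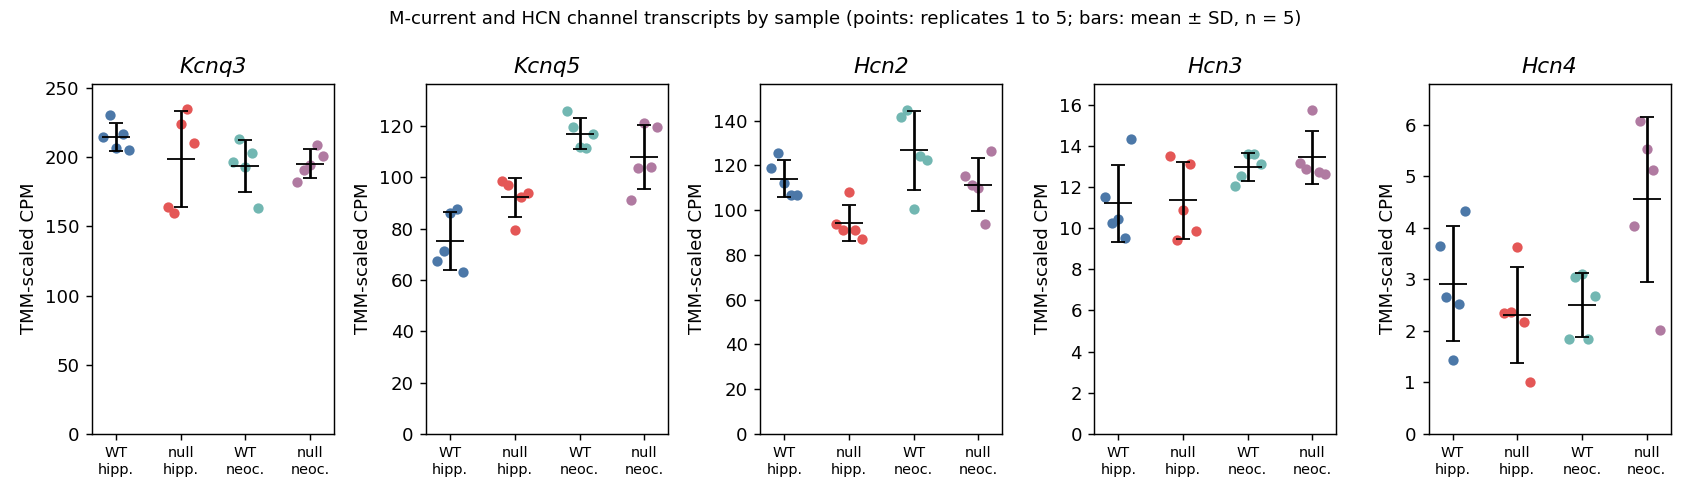
TMM-scaled CPM of each gene in every sample, by group, with the group mean and SD (n = 5). Kcnq5 in WT hippocampus (62.9 to 87.8 CPM) lies below both neocortical groups, and Hcn4 in miR-324-null neocortex has 4 samples between 4.03 and 6.06 CPM above the other groups' means and 1 at 2.01 CPM.

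Kcnq5 was read mostly through 1 transcript in each group. Kcnq5-201, of 6562 bases, held 95.9% ± 0.98 (SD, n = 5) of the gene's TPM in WT hippocampus, 94.5% ± 2.73 in miR-324-null hippocampus, 95.6% ± 1.15 in WT neocortex and 93.0% ± 3.20 in miR-324-null neocortex. Most of the rest was Kcnq5-203, at 0.52 to 1.47 TPM on average. Over 12 exact permutation tests of the leading transcript's share, for Kcnq3, Kcnq5 and Hcn3 in 4 comparisons, 0 passed after Benjamini-Hochberg adjustment and 1, for Hcn3 below, had an unadjusted p of at most 0.05. A lone share at the smallest p these tests allow, 0.0079, has an adjusted p of 0.095 over the 12, so the lack of calls does not show that the shares were alike. Hcn2 and Hcn4 could not be tested, since Hcn2-202 and Hcn4-201 held essentially the whole of their genes. The exons of Kcnq5 overlap those of the antisense lincRNA Gm26580, which has no row in the tables, by 237 bases, and how strand was treated in the counting is not given in the sources used here.

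Hcn2, strongly responsive to cAMP and widespread in the brain, lies on the plus strand at chr10:79716634-79736108 and was read through the transcript Hcn2-202 of 3195 bases. In WT hippocampus it was at 119, 126, 112, 107 and 107 CPM, and in miR-324-null hippocampus at 94.0, 91.3, 108, 91.0 and 87.3 CPM. Of the miR-324-null samples, 4 were below all WT samples and replicate 3 lay within the WT range. The log2 fold change was -0.27 (SE 0.068, 95% interval -0.42 to -0.12) with an unadjusted p of 0.0017 and an adjusted p of 0.21 by edgeR. DESeq2 called it (log2 fold change -0.27, adjusted p = 0.024), and no other alternative did, with adjusted p values up to 0.45 and a value between -0.28 and -0.27 in all 11. Without replicates 1 and 2, the libraries low in long transcripts, it was -0.26 (adjusted p = 0.35 by edgeR). In the same comparison 1 of 8 thalamic markers had a positive log2 fold change, with a median of -0.23 and 0 called. At an unadjusted p of at most 0.05 there was 1, Prkcd, beside 1635 of 14796 genes. Of the other lists, 0 of 6 striatal, 3 of 8 hippocampal and 5 of 7 pan-neuronal markers were positive. Replicate 3 had the highest thalamic sum of the miR-324-null libraries, 194 CPM. The part of these markers in the Hcn2 value was not tested.

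In WT neocortex Hcn2 was at 142, 145, 101, 124 and 122 CPM, and in miR-324-null neocortex at 115, 111, 109.9, 93.8 and 126 CPM. Here too all 5 miR-324-null samples lay below the WT mean, but the WT samples were widely spread and the log2 fold change of -0.18 (95% interval -0.38 to 0.02) did not pass (adjusted p = 0.47 by edgeR). Pan-neuronal markers summed to 5818 to 7149 CPM in miR-324-null and 6501 to 7122 CPM in WT neocortex, with 3 of 7 log2 fold changes positive. Neocortical markers summed to 1183 to 1618 CPM and 1466 to 1679 CPM, with 0 of 8 positive. Replicate 5, the miR-324-null library highest in Hcn2, was the highest of its group in both sums. Replicate 4, the lowest in Hcn2, was at 5945 and 1401 CPM. The part of these markers in the Hcn2 value was not tested. The Hcn2 genotype effects of the tissues differed by -0.08 (95% interval -0.35 to 0.18, adjusted p = 0.98 by edgeR). Between tissues, Hcn2 in hippocampus was at -0.15 relative to neocortex in WT samples (95% interval -0.34 to 0.04, adjusted p = 0.20) and at -0.23 in miR-324-null samples (95% interval -0.41 to -0.05, adjusted p = 0.053), with 5 of 5 hippocampal samples below the neocortical mean in either genotype. The latter lay at the threshold and passed in 7 of 11 alternatives, and it passed in 2 of 10 fits that left out 1 library, without miR-324-null hippocampus replicate 3 (adjusted p = 0.019) or without miR-324-null neocortex replicate 4 (adjusted p = 0.014). The WT difference passed only without WT neocortex replicate 3, its lowest neocortical sample (log2 fold change -0.22, adjusted p = 0.028).

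Hcn3, a subunit that responds little to cAMP, lies on the minus strand at chr3:89146074-89160196 and rested on far fewer reads, 121 to 265 estimated counts a library. It was at 11.5, 10.3, 10.5, 9.52 and 14.3 CPM in WT hippocampus and at 13.5, 9.41, 10.9, 13.1 and 9.84 CPM in miR-324-null hippocampus. The ranges were nearly the same, and the log2 fold change was 0.02 (95% interval -0.28 to 0.31, adjusted p = 0.98 by edgeR), or up to 0.37 in the analyses scaled for transcript length described below, with none passing. In WT neocortex it was at 12.04, 12.5, 13.6, 13.6 and 13.1 CPM and in miR-324-null neocortex at 13.2, 12.9, 15.7, 12.8 and 12.6 CPM. Replicate 3 stood above the other 4 miR-324-null samples, and the log2 fold change was 0.06 (95% interval -0.12 to 0.23, adjusted p = 0.83).

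Hippocampal Hcn3 was at -0.21 relative to neocortex in WT samples (95% interval -0.43 to 0.01, adjusted p = 0.13 by edgeR) and at -0.24 in miR-324-null samples (95% interval -0.49 to 0.01, adjusted p = 0.15). In either genotype 4 of 5 hippocampal samples lay below the neocortical mean. The WT difference passed without WT hippocampus replicate 5, its highest hippocampal sample (log2 fold change -0.30, adjusted p = 0.011), and in the analyses scaled for transcript length (log2 fold change -0.42, adjusted p = 0.043 with edgeR). The length scaling weighs short transcripts that were barely read. The coding transcript Hcn3-201 of 4002 bases held 99.2% ± 1.66 of the gene's TPM in WT hippocampus but 77.3% ± 16.2 in miR-324-null hippocampus, 86.2% ± 16.5 in WT neocortex and 84.4% ± 14.4 in miR-324-null neocortex. The genotype difference of this share in hippocampus, -22.0 percentage points, had the smallest p that the two-sided exact permutation test allows, 0.0079, and an adjusted p of 0.095. The rest of the TPM came from retained-intron and processed transcripts of 533 to 909 bases with at most 10.5 estimated counts in any library, and the TPM of Hcn3-201 itself in hippocampus was 4.68 ± 0.73 in WT and 4.58 ± 0.82 in miR-324-null mice. The exons of Hcn3 also overlap 711 bases of the antisense gene Pklr, which had at most 1.02 estimated counts in a library.

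Hcn4, which is strongly cAMP-sensitive, lies on the plus strand at chr9:58823412-58863175 with a single annotated transcript of 6118 bases, and had 15.0 to 120.0 estimated counts a library. It was at 1.84, 3.04, 3.09, 1.84 and 2.68 CPM in WT neocortex. In miR-324-null neocortex it was at 4.03, 6.06, 5.53, 5.11 and 2.01 CPM. Replicates 1 to 4 were above every WT sample and replicate 5 was within the WT range. The log2 fold change was 0.87 (SE 0.27, 95% interval 0.28 to 1.46) with an unadjusted p of 0.0071 and an adjusted p of 0.23 by edgeR, and it passed, at 1.07 with an adjusted p of 0.011, only in the fit without replicate 5, in which 566 genes were called in all, in place of 47.

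Markers of several brain regions differed between these libraries. Summed hippocampal markers were at 354, 338, 301 and 313 CPM in miR-324-null neocortex replicates 1 to 4 and at 201 CPM in replicate 5, against 201 to 257 CPM in WT neocortex. Summed neocortical markers showed the same split of libraries in the opposite direction, at 1240, 1183, 1289 and 1401 CPM in miR-324-null replicates 1 to 4 and 1618 CPM in replicate 5, against 1466 to 1679 CPM in WT, with 0 of 8 log2 fold changes positive, 4 at an unadjusted p of at most 0.05 and 0 called. Summed striatal markers were at 415, 329, 676, 469 and 279 CPM in miR-324-null replicates 1 to 5 and at 211, 442, 249.97, 195 and 209 CPM in WT replicates 1 to 5. WT replicate 2, with Hcn4 at 3.04 CPM, lay above miR-324-null replicates 1, 2 and 5 in the striatal sum. Of the miR-324-null libraries, replicate 5 was the lowest in Hcn4 and in the striatal sum. Replicate 2, the highest in Hcn4, had the second lowest striatal sum of that group. Choroid plexus markers summed to 808 CPM in that same miR-324-null replicate 2, against 16.7 to 65.9 CPM in the other neocortical libraries, and all 4 that could be tested had a positive log2 fold change (median 1.54), with 3 at an unadjusted p of at most 0.05 and 0 called. Of the hippocampal list, Fibcd1 averaged 14.1 CPM ± 5.91 in miR-324-null and 6.31 CPM ± 0.99 in WT neocortex (log2 fold change 1.16, adjusted p = 0.085 by edgeR), and of the striatal list Adora2a averaged 20.6 CPM ± 11.0 and 6.27 CPM ± 6.50 (log2 fold change 1.73, adjusted p = 0.24). All 6 striatal markers that could be tested had a positive log2 fold change, with 6 at an unadjusted p of at most 0.05 and 0 called. Summed thalamic markers were at 143 to 196 CPM in miR-324-null and 148 to 184 CPM in WT neocortex. Of these 8 genes, 6 had a positive log2 fold change (median 0.13), with 0 called. Prkcd, at 0.73 (adjusted p = 0.16 by edgeR), and Ntng1, at 0.61 (adjusted p = 0.19), had an unadjusted p of at most 0.05. At that unadjusted threshold there were 1822 of 14930 genes in this comparison. Without WT neocortex replicate 2 and miR-324-null neocortex replicate 3, the libraries with the highest striatal sum in each genotype, the Hcn4 log2 fold change was 0.87 (adjusted p = 0.47). Without miR-324-null replicate 2 alone it was 0.74 (adjusted p = 0.36 by edgeR). The part of the neighbouring regions in the Hcn4 value was otherwise not tested.

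**Figure D5:**
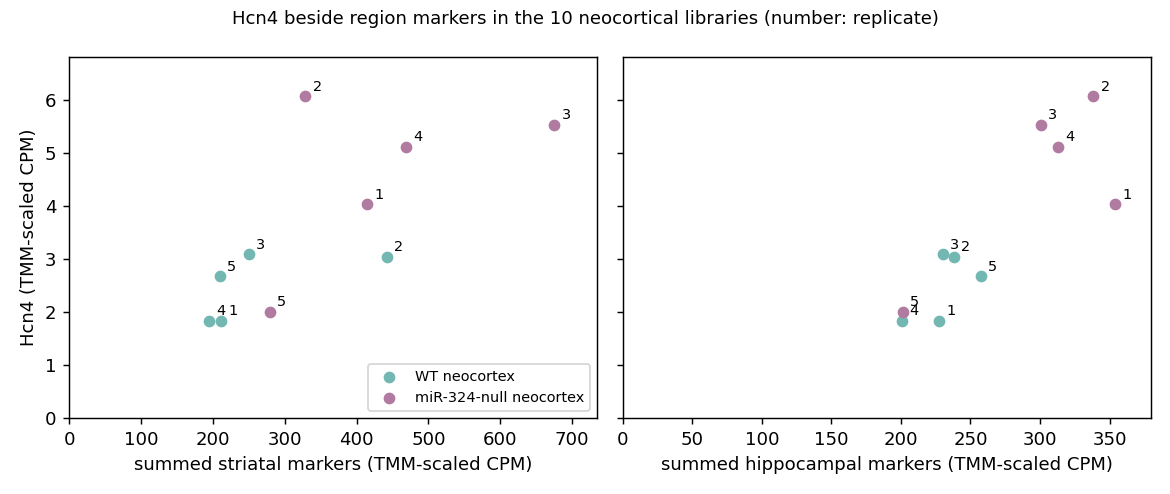
Hcn4 (TMM-scaled CPM) in each neocortical library against the summed CPM of 7 striatal markers (left) and of 8 hippocampal markers (right), numbered by replicate. The miR-324-null replicates 1 to 4 lie above all WT libraries in Hcn4 and in the hippocampal sum, and replicate 5 lies among the WT libraries in both.

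In hippocampus Hcn4 was at 3.65, 2.65, 1.43, 2.52 and 4.32 CPM in WT mice, and at 2.34, 2.37, 3.63, 2.16 and 1.01 CPM in miR-324-null mice. The ranges overlapped widely and the lowest sample of each genotype was the library high in choroid plexus markers, WT replicate 3 and miR-324-null replicate 5. The log2 fold change was -0.33 (95% interval -1.04 to 0.39, adjusted p = 0.76 by edgeR), and -0.31 (adjusted p = 0.64) without those libraries. Summed thalamic markers were at 190.3, 190.0, 144, 163 and 236 CPM in WT hippocampus replicates 1 to 5. In miR-324-null hippocampus they were at 145, 120, 194, 167 and 144 CPM, with replicate 3 the highest in this sum and in Hcn4. The part of either marker set in Hcn4 was not tested further. WT samples showed a tissue difference of 0.22 (95% interval -0.37 to 0.80, adjusted p = 0.58). In miR-324-null samples Hcn4 was lower in hippocampus, with 5 of 5 samples below the neocortical mean, a log2 fold change of -0.97 (SE 0.33, 95% interval -1.67 to -0.26) (1.95-fold lower) and an adjusted p of 0.043 by edgeR. This call was fragile. It held in 7 of 11 alternatives and in 2 of the 10 fits that left out 1 library, without miR-324-null hippocampus replicate 3 (adjusted p = 0.020) and without miR-324-null neocortex replicate 5 (adjusted p = 0.0083), while leaving out any other of the 10 libraries gave adjusted p values of 0.059 to 0.103. Without miR-324-null hippocampus replicates 1 and 2, the libraries low in long transcripts, the log2 fold change was -0.98 and did not pass (adjusted p = 0.13). The difference between the genotype effects was -1.19 (SE 0.45, 95% interval -2.14 to -0.25), with an adjusted p of 0.85 by edgeR.

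The partners and regulators of the M-current were described from a list of 18 genes. Between genotypes 0 of 18 passed with edgeR in either tissue, with 1 at an unadjusted p of at most 0.05 in each, Usp36 (a deubiquitinase) in hippocampus at a log2 fold change of -0.21 (adjusted p = 0.37) and Pip5k1c (which makes PIP2) in neocortex at -0.23 (adjusted p = 0.19). That unadjusted threshold was met by 1635 of 14796 genes in hippocampus and 1822 of 14930 in neocortex. The median log2 fold change of the list was -0.03 in hippocampus and -0.01 in neocortex, beside 0.00 for all genes in either tissue. DESeq2 called 0 in hippocampus, beside 138 of all genes, and 1, Pip5k1c, in neocortex (adjusted p = 0.049), beside 240. Pip5k1c also passed in edgeR without miR-324-null neocortex replicate 5 (log2 fold change -0.29, adjusted p = 0.016), where 566 genes passed in all. Between tissues 14 of 18 passed in WT samples, 7 higher and 7 lower in hippocampus, and 12 of 18 in miR-324-null samples, 6 in either direction, beside 36.1% and 27.4% of all genes tested. In WT samples Pip5k1b, another PIP2-making kinase, was 1.18 higher (SE 0.11), Prkca, a protein kinase C, 0.58 higher (SE 0.063) and the muscarinic receptor gene Chrm1 0.36 higher (SE 0.067) on the log2 scale. Plcb4, a phospholipase C, was at -1.75 (SE 0.073), Pip5k1c at -0.50 (SE 0.059) and the anchoring protein gene Akap5 at -0.49 (SE 0.062). In miR-324-null samples Pip5k1b was at 1.26 (SE 0.098), Prkca at 0.53 (SE 0.10), Chrm1 at 0.44 (SE 0.067), Plcb4 at -1.89 (SE 0.15), Akap5 at -0.54 (SE 0.11) and Prkcb at -0.40 (SE 0.099). The list's median tissue difference was -0.08 for WT and -0.09 for miR-324-null mice, beside 0.00 and 0.01 for all genes.

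The HCN list held 20 genes for partners of the channels and for enzymes that make or break down cAMP, of which 19 could be tested. For genotype 0 of 19 passed with edgeR in either tissue. At an unadjusted p of at most 0.05 there were 2 in hippocampus, beside 1635 of 14796 genes, and 3 in neocortex, beside 1822 of 14930 genes. DESeq2 called 0 in both. The lowest adjusted p values were those of Pde10a, a phosphodiesterase, in hippocampus (log2 fold change -0.25, adjusted p = 0.37) and of Adcy5, an adenylyl cyclase, in neocortex (log2 fold change 0.44, adjusted p = 0.27). Adcy5 passed without miR-324-null neocortex replicate 5 (log2 fold change 0.55, adjusted p = 0.027 by edgeR), where 566 genes passed in all, in place of 47. That replicate had the lowest striatal marker sum of its group, 279 CPM. The part of striatal tissue in the Adcy5 genotype value was not tested. Between tissues 7 of 19 passed for WT and 6 of 19 for miR-324-null mice, all of them lower in hippocampus. Over all genes tested 36.1% and 27.4% passed, 18.0% and 13.6% with a lower level in hippocampus, so the number passing in either direction was near the share of all genes. The members of the list that passed included Prkg2, a cGMP-dependent kinase, at -0.77 (SE 0.24) in WT and -1.24 (SE 0.12) in miR-324-null mice, and the phosphodiesterase genes Pde4d at -0.67 (SE 0.12) and -0.65 (SE 0.14) and Pde4b at -0.53 (SE 0.059) and -0.64 (SE 0.070). Pde10a at -0.92 (SE 0.21) and Adcy5 at -0.52 (SE 0.14) passed in miR-324-null samples, in which all 6 tested striatal markers passed as well, 5 of them lower in hippocampus, with a summed level of 247 to 318 CPM there against 279 to 676 CPM in neocortex, and the part of striatal tissue in them was not tested.

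Within groups, the genes whose level followed each member most closely were ranked by Pearson's r over the 20 samples, after subtracting the group mean, among 14195 other protein-coding genes. The points share libraries, so the values describe co-variation between libraries only. Kcnq3 went with Kalrn (r = 0.89), Ank3 (r = 0.87), the gene for ankyrin-G, and Plcb1 (r = 0.87), a phospholipase C, and with the miR-324-null hippocampus replicates 1 and 2 low for Kcnq3 these values fell to 0.80, 0.79 and 0.80 when the 2 samples farthest from the median were left out. Kcnq5 went with Gzf1 (r = 0.80), Neto1 (r = 0.77) and Rgmb (r = 0.77). Hcn2 went with Zmiz2 (r = 0.91), Iqsec1 (r = 0.82) and Zfp703 (r = 0.80). Hcn3 went with Zfp326 (r = 0.84), Chuk (r = 0.82) and Foxp2 (r = 0.80). Hcn4 went with Cdk18 (r = 0.94), Hmgb3 (r = 0.90) and Dner (r = 0.85), and without its 2 farthest samples the values were 0.89, 0.80 and 0.79. Spearman's rho for the 15 pairs lay between 0.63 and 0.87.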

How the data were processed

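RNA was measured in 20 samples, 5 for each genotype and tissue, by stranded mRNA sequencing. The authors quantified transcripts with kallisto against GRCm38 and deposited estimated counts, effective lengths and TPM values for 115270 transcripts per sample. The submitters' processing notes name GRCh38, but the transcript identifiers are of mouse. Of the transcripts, 113580 matched the GENCODE annotation of GRCm38 by identifier, and those left over held at most 0.56% of a library. Deposited estimated counts and deposited TPM values were summed per gene, and counts were rounded.

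Tests used edgeR 4.0.16 (quasi-likelihood, TMM, default filterByExpr, Benjamini-Hochberg over all genes tested, adjusted p of at most 0.05), with no covariates, on the 10 samples compared or, for the interaction, on all 20. DESeq2 1.42.0, limma 3.58.1 on log2(TPM + 1) and log2(TPM + 0.1), other filters and scalings, a replicate block and leaving out libraries were alternatives. The main edgeR test, DESeq2 without a length offset and limma with a pseudocount of 1 were tried on simulated counts. The other alternatives were not. Intervals are 95%. CPM are TMM-scaled, and log values used a prior count of 2. Transcript shares were compared with two-sided exact permutation tests (scipy 1.17.1). Depth was 12752439 to 19617765 estimated counts. A search with BLAST 2.17.0 for stretches of at least 100 bases and 95% identity in other genes' transcripts found only the antisense overlaps given above. The named genes were the 5 members, up to 3 genes at either end of the called genes of each list (or the 3 with the lowest adjusted p) and the 3 genes most like each member. The genes and lists were chosen with earlier results of these data known, and the choices of libraries to leave out together were made after seeing the data.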

Additional observations from a re-analysis of the deposited data

Results flagged for a closer look

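Of the 20 sets of 5 samples (5 genes in 4 groups), 1 held a sample far from the others by Dixon's criterion of 0.71, and chance flags about 1 set in 20. Hcn3 in miR-324-null neocortex replicate 3 was at 15.7 CPM, against 12.6 to 13.2 CPM in the other 4 samples, a gap of 0.83 of the whole range. The same library had the highest striatal marker sum of the neocortical libraries, 676 CPM, and any relation between these values was not tested. Without it and WT neocortex replicate 2 the Hcn3 genotype difference in neocortex was -0.03 (adjusted p = 0.95 by edgeR).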

How the results depend on the processing

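The Kcnq5 tissue difference in WT samples kept its call in all 11 alternatives that did not leave out libraries (log2 fold change -0.66 to -0.63). The number of members called for genotype in hippocampus was 1 with DESeq2 in place of 0, where the number of genes called was 138 in place of 17. For WT tissue it was 2 in place of 1 with the length offset in edgeR or DESeq2, with limma at either pseudocount, and without the neocortical libraries highest in striatal markers. For miR-324-null tissue it was 2 in place of 1 with DESeq2 size factors, the minimum of 10 counts, the length offset in DESeq2, all 20 samples in 1 fit and limma at either pseudocount, 3 with DESeq2, and 0 with the length offset in edgeR, with protein-coding transcripts only, and without the hippocampal libraries high in choroid plexus markers or the neocortical libraries highest in striatal markers. Without the hippocampal libraries low in long transcripts it was 1 as before, but the member called was Kcnq3 in place of Hcn4 (adjusted p = 0.13 by edgeR). With 1 library left out, the number called ranged from 0 to 1 for genotype in neocortex, 1 to 2 for WT tissue and 0 to 2 for miR-324-null tissue, and was 0 for genotype in hippocampus and for the interaction.

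A replicate block gave 2 members called for WT tissue in place of 1, Kcnq3 passing with an adjusted p of 0.037 by edgeR, and the same number of members in the other comparisons, while the number of genes called fell from 17 to 4 for genotype in hippocampus and from 47 to 30 in neocortex. The numbers were not taken to pair the samples, since the labels do not say that same-numbered samples share a mouse. Deviations from the group means of same-numbered samples correlated at -0.10 to 0.10 between tissues in WT mice, 0.017 to 0.18 in miR-324-null mice, and -0.17 to 0.12 between genotypes. A sample correlated best with its own number between tissues in 2 of 5 cases in WT and 3 of 5 in miR-324-null mice, and between genotypes in 1 of 5 in each tissue. These values cannot decide whether the tissues share mice.

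Signs changed for values near 0. Hcn3 for genotype in hippocampus was -0.035 with protein-coding transcripts only, and in neocortex -0.027 without the libraries highest in striatal markers. The Hcn3 interaction was 0.31 with either length offset and 0.042 without those libraries. Kcnq3 in miR-324-null tissue was -0.070 with limma on log2(TPM + 1) and -0.073 on log2(TPM + 0.1). Without the hippocampal libraries low in long transcripts, Kcnq3 was 0.054 for genotype in hippocampus and 0.040 for the interaction. Leaving out 1 library moved Hcn3 between -0.052 and 0.12 for genotype in hippocampus, -0.0084 and 0.080 in neocortex and -0.11 and 0.061 for the interaction, and Kcnq3 between -0.041 and 0.052 for genotype in neocortex and -0.042 and 0.10 in miR-324-null tissue. It moved the difference in the leading transcript's share, in percentage points, between -0.20 and 0.51 (genotype, hippocampus), -1.20 and 0.040 (genotype, neocortex) and -0.73 and 0.63 (WT tissue) for Kcnq3, between -0.045 and 0.73 (WT tissue) for Kcnq5, and between -7.37 and 2.54 (genotype, neocortex) for Hcn3, and 0 shares passed in any fit. The cause of these changes was not tested. Hcn3 and Hcn4 had 265 estimated counts or fewer in every library, the SE of Hcn4 was 0.27 to 0.33 in the comparisons of 2 groups, against 0.064 to 0.14 for the other members, and DESeq2 gave Hcn3 and Hcn4 no adjusted p for genotype in hippocampus.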
